A study of Mus musculus with 10 samples.

Results

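The 35 genes described here encode heparan sulfate proteoglycan core proteins and the enzymes that build, sulfate and cut their sugar chains. They were chosen by symbol from 55385 annotated mouse genes, as a list that was drawn up with results of the same comparison already known, so their calls and changes below are a description and carry no test of their own. Of the 35 genes, 30 had enough counts to enter the fit of 13620 genes across the series. RNA was sequenced from cultured, untreated cells of the mouse melanoma line WT31 and of its subline WT31_P5IV, with 5 libraries each that the labels name biological replicates. WT31 comes, per the study's methods, from Tyr::NrasQ61K/°; INK4a-/- mice, in which the tyrosinase promoter drives a mutant Nras in the pigment cell lineage, and as a descendant WT31_P5IV shares this origin. Cdkn2a, the gene that encodes Ink4a, had 63 to 84 counts in every library, and counts per gene cannot show whether the deleted part is missing. WT31_P5IV is a single subline, obtained by 5 rounds of tail vein injection and regrowth of the cells from liver metastases, so the libraries of each group are cultures of 1 line and the spread between them is that between cultures. The comparison asks how the genes of this pathway differ between a melanoma line and its liver-passaged descendant.

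Heparan sulfate is a long, sulfated sugar chain that is attached to serine residues of a core protein through a short linker of xylose, galactose and glucuronic acid. The chain is polymerised in the Golgi apparatus, partly stripped of acetyl groups and N-sulfated, epimerised and O-sulfated, and at the cell surface it is trimmed further by sulfatases and cut by heparanase. Its sulfated stretches hold growth factors, chemokines and matrix proteins, and in melanoma the surface chains and heparanase have long been studied for their part in adhesion, growth factor signalling and invasion.

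The libraries held 24255389 to 25750639 estimated counts, so that the detection floor of 3 counts was near 0.12 CPM (counts scaled to library size) in each of them. All 7 pigment cell markers were among the genes tested, with a summed level of 14380 to 15220 TPM (transcript abundance scaled to gene length and library) in WT31 and 16080 to 17920 TPM in WT31_P5IV. Of these 7, 3 were called higher in WT31_P5IV and 2 lower, from Pmel at 1.22 to Tyrp1 at -0.96 on the log2 scale. Over all 13620 genes tested, 34.6% were called higher and 33.9% lower. Of 4 hepatocyte markers, Alb, Apoa1 and Cps1 were at 0 in every WT31 library, while in WT31_P5IV Alb had 9 counts in replicate 1, Apoa1 had 4, 2 and 3 counts in replicates 1, 2 and 5, and Cps1 had 1 count in replicate 5. Ttr, the fourth, was at 6 to 14 and 8 to 15 counts and was not called, with 0.26 on the log2 scale. The summed level of the list was 0.354 to 0.805 TPM in WT31 and 0.540 to 1.37 TPM in WT31_P5IV. For 5 endothelial markers the sums were 0.0550 to 0.324 and 0.0807 to 0.229 TPM, with Cdh5 at 0 throughout, and for 5 stellate cell and fibroblast markers they were 0.556 to 0.805 and 0.732 to 0.984 TPM. Of these 5, Acta2, at 2 to 12 and 15 to 21 counts, entered the fit through WT31_P5IV alone and was at 1.46 on the log2 scale, Pdgfrb was not called, at -0.18, and Lrat, Des and Lum had too few counts to be tested, at most 8 in any library. Of 4 macrophage and leukocyte markers, Ptprc and Adgre1 had at most 2 counts in any library and Csf1r 0 to 5 and 1 to 5 counts, while Cd68, also a lysosomal protein of other cells, rose by 1.45 on the log2 scale, with list sums of 1.65 to 4.48 TPM and 6.26 to 9.84 TPM. Mitochondrially encoded genes took 13.7 to 16.1% of all TPM in WT31 and 22.5 to 26.4% in WT31_P5IV, which lowers the TPM of every other gene in the second group, so changes of a gene between the groups are given on TMM-scaled CPM and levels of different genes on TPM. Where TPM summed over several members is set between the groups, a further sum stands beside it. In that sum mitochondrial genes are left out and the rest rescaled, a choice made after seeing the data. The marker sums above were not rescaled and keep the effect of the mitochondrial share. The part of these covariates in the results below was not tested, and because whole cultures were sequenced, a lower level in every cell and fewer cells expressing a gene cannot be told apart.

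In the fit, a gene was called when its adjusted p was under 0.05 (edgeR's quasi-likelihood test, Benjamini-Hochberg adjustment over all 13620 genes). Of the 30 tested members 26 were called, against 68.5% of all genes tested. Among them 20 were called higher in WT31_P5IV and 6 lower, where 34.6% of all genes were called higher and 33.9% lower. On the log2(TPM + 0.1) scale the same split was 13 higher and 7 lower, where limma called 21.4% of all genes higher and 43.7% lower. The median log2 fold change was 0.29 over the tested members and 0.010 over all genes, and the median absolute change was 0.45 and 0.30. For 21 members the CPM of the groups did not overlap, as for 54.1% of all genes. A change of at least 1 on the log2 scale together with the call, the filter that the study applied for its heat maps, was reached by 3 members, Xylt2, Agrn and Hs6st2, against 9.10% of all genes. Hs6st2 entered the fit through its WT31 counts alone, so it had to differ to be tested; without it, 25 of 29 members were called, 20 higher and 5 lower, and 2 passed the filter. Just outside it lay Sulf2 at -0.997 and Sdc1 at 0.98 on the log2 scale, and just inside lay Agrn at 1.02.

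**Figure D1:**
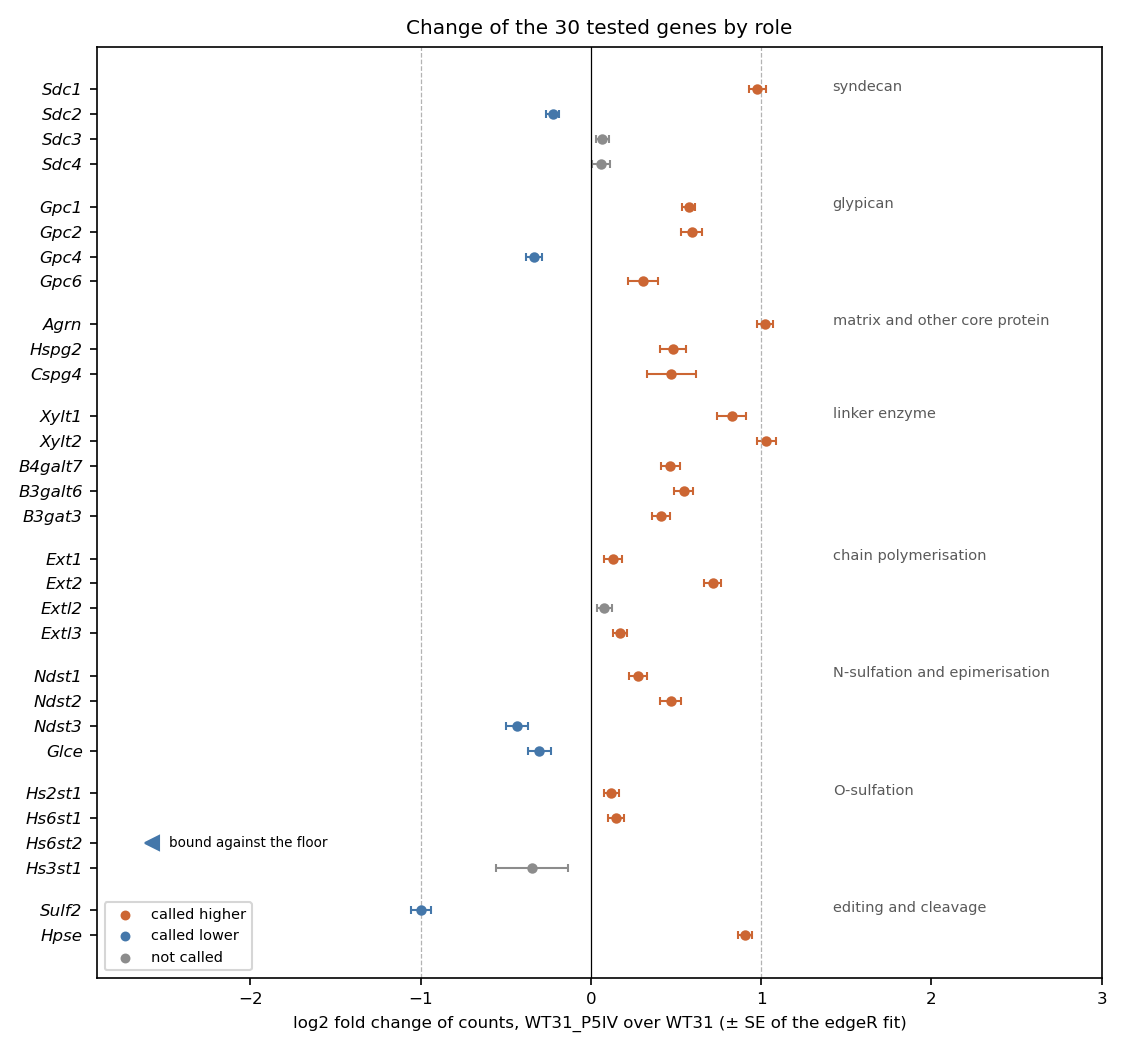
Log2 fold change of counts, WT31_P5IV over WT31, for the 30 tested genes in order of role, with bars for ± 1 SE of the edgeR fit and dashed lines at -1 and 1. The 5 linker enzymes all lie to the right of 0, N-sulfation and O-sulfation genes lie on both sides, and Hs6st2 is drawn as an arrow at its bound, at least 5.97-fold lower, because its counts in WT31_P5IV were under the detection floor.

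The enzymes that build the linker tetrasaccharide moved in the same direction. All 5 were called higher in WT31_P5IV, and neither their CPM nor their TPM overlapped between the groups. Of all genes tested, 34.6% were called higher, and 54.1% on CPM and 50.9% on TPM did not overlap. Reference sequence before the start of 4 of these genes is shown because they were called in the same direction; RefSeq windows, on GRCm38.p6, were used for 27 of the 35 members, Xylt1 not among them. Each run is the 250 bases upstream of the RefSeq start on the gene's strand, at chr11:94677494-94677743 (minus) for Xylt2, chr13:55599646-55599895 (plus) for B4galt7, chr4:155992679-155992928 (minus) for B3galt6 and chr19:8920143-8920392 (plus) for B3gat3. Capitals mark matches on either strand to 4 motifs, which are GGGCGG (the GC box), CCAAT (the CCAAT box), CACGTG (an E-box) and also CATGTG (the E-box form known from pigment genes), and no match overlapped another.
Xylt2: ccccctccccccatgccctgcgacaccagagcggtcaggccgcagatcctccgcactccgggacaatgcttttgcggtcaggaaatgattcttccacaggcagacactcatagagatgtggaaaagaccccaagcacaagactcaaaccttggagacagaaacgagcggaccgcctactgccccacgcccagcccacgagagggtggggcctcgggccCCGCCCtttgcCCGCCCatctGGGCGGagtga
B4galt7: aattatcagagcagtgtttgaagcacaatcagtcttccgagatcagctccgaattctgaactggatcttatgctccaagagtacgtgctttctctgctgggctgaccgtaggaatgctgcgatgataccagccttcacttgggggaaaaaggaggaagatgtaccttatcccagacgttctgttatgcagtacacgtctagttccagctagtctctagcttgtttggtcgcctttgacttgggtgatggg
B3galt6: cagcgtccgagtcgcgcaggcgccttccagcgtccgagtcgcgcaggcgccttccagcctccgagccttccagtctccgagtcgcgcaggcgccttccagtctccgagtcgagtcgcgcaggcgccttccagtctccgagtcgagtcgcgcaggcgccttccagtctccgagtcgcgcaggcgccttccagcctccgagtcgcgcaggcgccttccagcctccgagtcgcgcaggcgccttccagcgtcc
B3gat3: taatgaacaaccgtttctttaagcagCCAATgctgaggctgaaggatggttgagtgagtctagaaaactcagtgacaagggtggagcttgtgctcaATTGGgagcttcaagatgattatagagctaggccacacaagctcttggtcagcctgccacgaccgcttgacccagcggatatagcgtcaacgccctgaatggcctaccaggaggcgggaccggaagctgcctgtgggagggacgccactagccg
By GENCODE, the last 22 bases of the Xylt2 window and the last 19 of the B3gat3 window lie inside the annotated gene. Xylt2 held 3 matches to GGGCGG, 2 of them in those last bases, and none of the others, B3gat3 held 2 to CCAAT, and B4galt7 and B3galt6 held none of the 4 motifs. Over the 32851 RefSeq windows of this length, GGGCGG was found in 32.7%, CCAAT in 33.8%, CATGTG in 12.3% and CACGTG in 6.02%. The B3galt6 window had 71.6% G or C and that of B4galt7 had 48.0%, against a median of 52.4% over all windows. None of the 4 motifs was present in all of these windows.

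Xylt2 and Xylt1 encode the xylosyltransferases that start every chain by adding xylose to the core protein. Xylt2, on the minus strand at chr11:94663851-94677515 (GRCm38, GENCODE M21), had 20.4, 21.2, 20.6, 23.0 and 22.5 CPM in the 5 WT31 libraries and 44.4, 45.7, 47.5, 39.3 and 43.1 CPM in WT31_P5IV. Every subline library was thus well above every parental one, and the log2 fold change was 1.03 ± 0.055 (SE), a 2.04-fold rise and the highest among the members. Xylt1, at chr7:117380979-117673580, had 22.2, 28.04, 27.5, 22.0 and 22.0 CPM in WT31 and 41.3, 45.6, 47.4, 36.9 and 44.9 CPM in WT31_P5IV, with a log2 fold change of 0.83 ± 0.084. On the TPM scale, Xylt2 was the more abundant of the pair in every library, at 10.8 ± 0.151 against 4.13 ± 0.640 TPM in WT31 (SD, n = 5) and 20.4 ± 1.76 against 6.52 ± 0.678 TPM in WT31_P5IV. The summed TPM of the pair went from 14.9 ± 0.742 to 26.9 ± 2.27, or from 17.5 ± 1.04 to 35.6 ± 3.20 without mitochondrial genes, while the share of Xylt2 in it overlapped between the groups, at 69.0 to 74.9% and 73.2 to 77.2%.

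The 3 remaining linker enzymes add the galactoses and the glucuronic acid. B4galt7, galactosyltransferase I, was at 19.6 to 23.7 CPM in WT31 and 27.8 to 31.7 CPM in WT31_P5IV, with a log2 fold change of 0.47 ± 0.057. Of the 31-base words of its transcripts 8.53% are shared with other genes, most with Decr2, and Gm15911 overlaps it on the opposite strand. B3galt6, galactosyltransferase II, was at 12.1 to 14.1 and 17.8 to 20.2 CPM, with 0.54 ± 0.056. B3gat3, glucuronosyltransferase I, was at 27.4 to 34.3 and 40.8 to 41.7 CPM, with 0.41 ± 0.050. Their fold changes were smaller than those of the xylosyltransferases, and in each of them the lowest subline library was above the highest parental one. By TPM, B3gat3 was the most abundant linker enzyme in both groups, at 35.5 ± 2.07 and 41.5 ± 0.832 TPM, and Xylt1 the least. B3galt6 lies 0.173 Mb from Agrn on chromosome 4, so a pair of members with the same direction of change are close neighbours.

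Among the syndecans, which span the membrane, the dominant Sdc3 was not called, Sdc1 was called higher and Sdc2 lower. Sdc3, at chr4:130792537-130826319, had 1041, 1149, 1205, 1060.2 and 1067 TPM in WT31 and 1023, 1089.7, 1061, 937 and 982 TPM in WT31_P5IV. It was the highest of all 35 genes in every library, and its groups overlapped on both scales. Its log2 fold change of CPM was 0.066 ± 0.038, which was not called, and it turned negative on the TPM scale and in limma voom without scaling or filter. Part of its signal is uncertain, since 6.30% of its 31-base words are shared with other genes, most with Gm26716, which overlaps it on the opposite strand, and the sources do not say whether the libraries keep strand.

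Sdc1, the syndecan of epithelia and plasma cells, at chr12:8771323-8793715, had 47.0, 42.0, 44.0, 44.9 and 49.9 CPM in WT31 and 91.6, 97.2, 88.5, 87.4 and 84.1 CPM in WT31_P5IV. The groups were far apart, with a log2 fold change of 0.98 ± 0.051 or 1.97-fold. Sdc2, the syndecan of mesenchymal cells, had 165, 168, 167, 157 and 154 CPM in WT31 and 135, 146, 143, 130.1 and 139.9 CPM in WT31_P5IV, with -0.23 ± 0.041. It fell in each subline library below the lowest parental one, but by a far smaller amount than Sdc1 rose. In WT31 the order by TPM was Sdc3, Sdc2, Sdc1 and Sdc4, with Sdc2 at 72.7 ± 4.92 and Sdc1 at 27.9 ± 1.21 TPM. In WT31_P5IV the same genes were at 55.1 ± 2.62 and 49.2 ± 1.52 TPM and their ranges touched, at 51.2 to 57.3 and 47.4 to 51.3 TPM. The ratio of Sdc1 to Sdc2 TPM, 0.385 ± 0.0375 in WT31, was 0.895 ± 0.0483 in WT31_P5IV. Sdc4, found at focal adhesions, was at 21.3 to 24.3 and 22.8 to 25.9 CPM, with 0.059 ± 0.050 on the log2 scale, and was not called.

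Sdc3 supplied 90.5 ± 0.396% of the summed syndecan TPM in WT31 and 89.6 ± 0.323% in WT31_P5IV, and these shares overlapped. The share of Sdc1 was 2.29 ± 0.199% and 4.34 ± 0.168%, with no overlap between the groups. Since a share within a library does not depend on the mitochondrial fraction, these values are free of the shift in TPM.

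**Figure D2:**
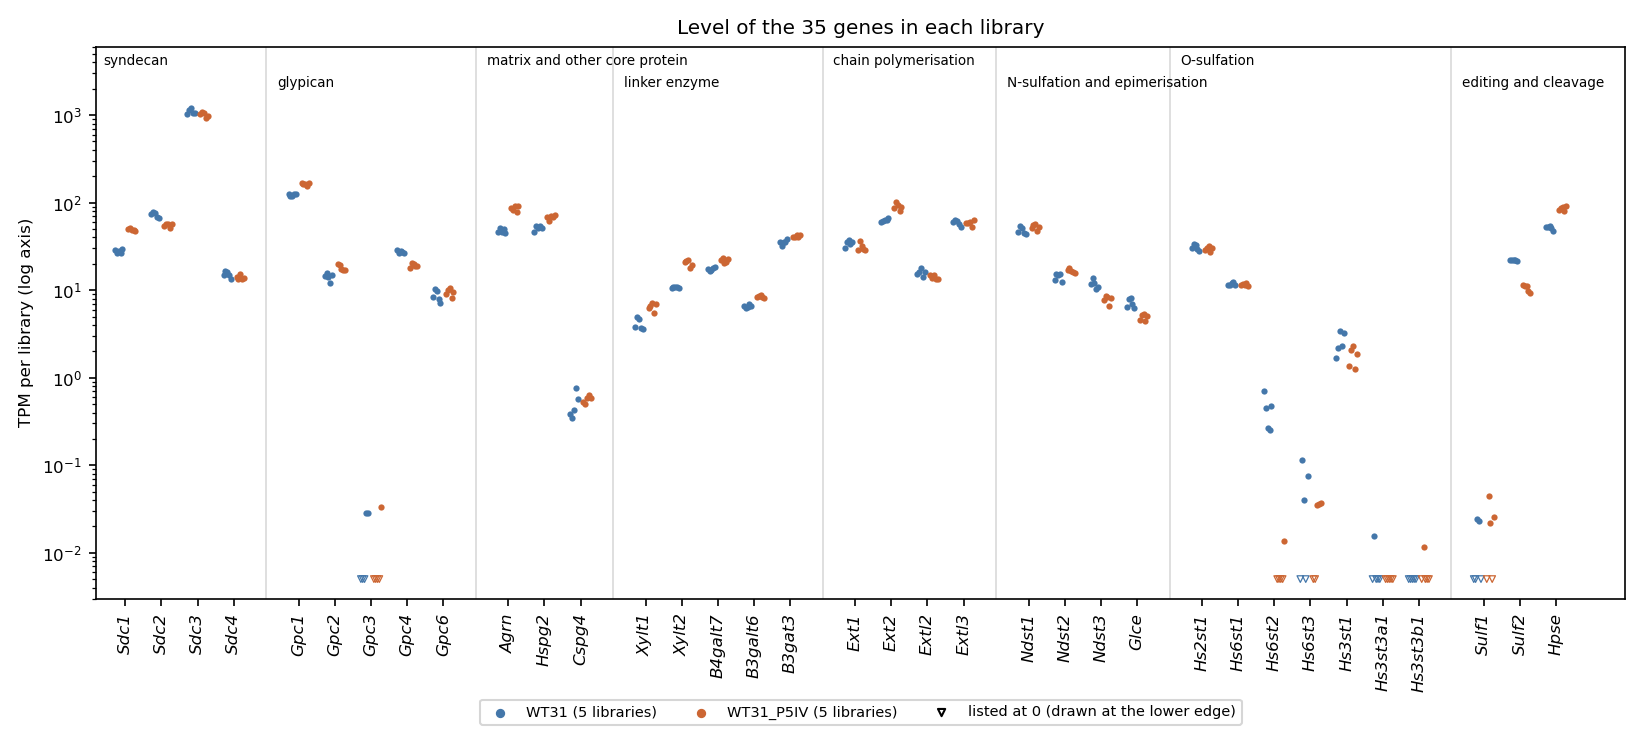
TPM of each of the 35 genes in every library on a log axis, by role, with 5 points for WT31 (blue) and 5 for WT31_P5IV (orange) and open triangles for libraries in which a gene is listed at 0. Sdc3 stands above all others near 1104 TPM in WT31 and 1018 TPM in WT31_P5IV, the highest enzyme in WT31_P5IV is Ext2 at 90.2 TPM, and 5 genes stay at or near 0.

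Glypicans are tethered to the outer membrane by a lipid anchor. Here 3 of the 4 that were tested were called higher and Gpc4 lower, where 34.6% of all genes tested were called higher and 33.9% lower. Gpc1, the glypican most often described in tumour cells, at chr1:92831645-92860779, had 332, 309, 311, 342 and 346 CPM in WT31 and 500.4, 498, 485, 472 and 485 CPM in WT31_P5IV. All subline libraries were above all parental ones, with a log2 fold change of 0.57 ± 0.040. Of its 31-base words 18.4% are shared, most with Ankmy1 on the opposite strand. Gpc4, on the X chromosome at chrX:52053021-52165252, had 47.0, 42.7, 45.0, 45.8 and 45.4 CPM in WT31 and 33.6, 39.4, 36.7, 35.4 and 34.1 CPM in WT31_P5IV. It was lower in every subline library, with -0.33 ± 0.047. Gpc1 held 71.0 ± 1.44% of the summed glypican TPM in WT31 and 77.7 ± 0.780% in WT31_P5IV, and Gpc4 held 15.8 ± 0.441% and 9.17 ± 0.522%, with no overlap for either gene.

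Gpc2, mostly known from developing neurons, was at 16.7 to 20.1 and 24.6 to 30.2 CPM, with 0.59 ± 0.062 on the log2 scale. Its value is uncertain, since 52.0% of its 31-base words are shared, mainly with Gm43720, an annotated gene that overlaps it on the same strand. Gpc6 was at 16.0 to 21.9 and 20.3 to 26.2 CPM, with 0.30 ± 0.089, and its groups overlapped. Although Gpc6 was called higher on counts, the call was lost on the TPM scale and in limma voom without scaling or filter. Gpc3, the neighbour of Gpc4 at a distance of 0.107 Mb, had 0 or 1 count in every library and was not tested.

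**Figure D3:**
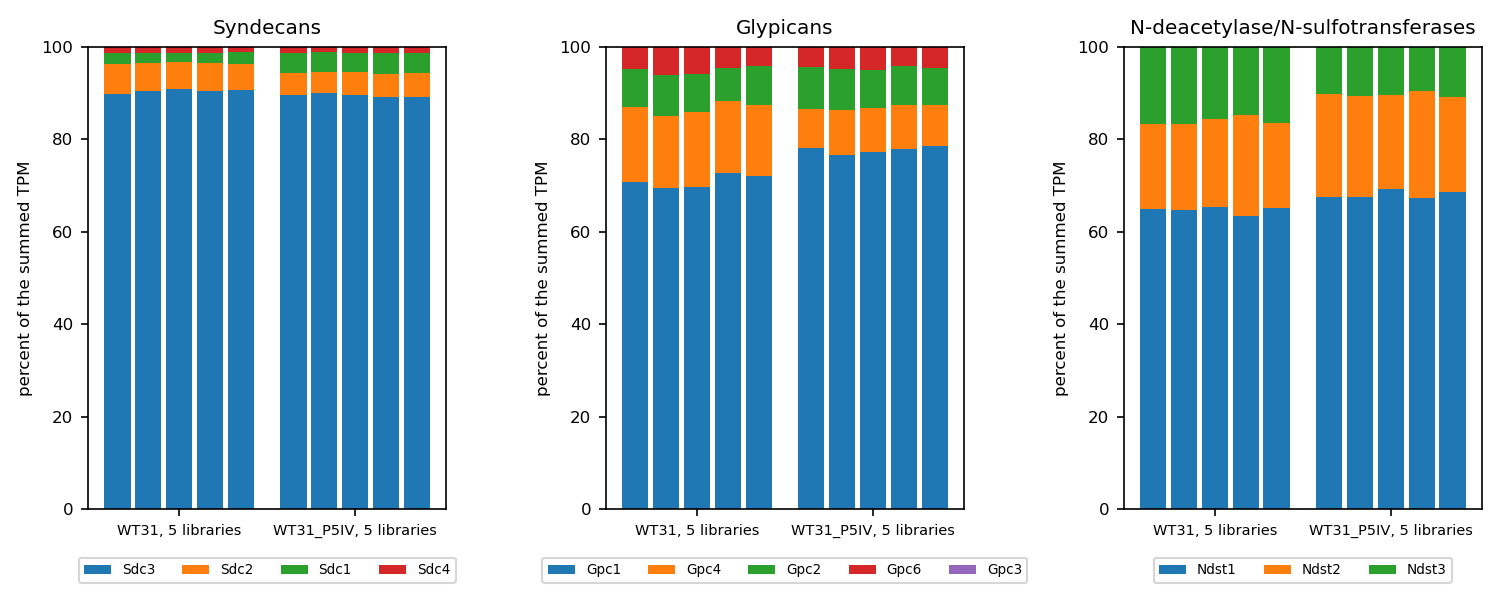
Stacked bars of each gene's percent of the summed TPM of its family in the 5 WT31 and the 5 WT31_P5IV libraries, for syndecans, glypicans and the N-deacetylase/N-sulfotransferases. Sdc3 fills 90.5% and 89.6% of the syndecan bars, Gpc4 shrinks from 15.8 to 9.17% among glypicans, and Ndst3 from 16.0 to 10.2% among the N-deacetylase/N-sulfotransferases.

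The secreted core proteins rose. Agrn encodes agrin, a basement membrane proteoglycan known from the neuromuscular junction, at chr4:156165290-156197488. It had 153, 172, 164, 162 and 156 CPM in WT31 and 331, 327, 354, 298 and 332 CPM in WT31_P5IV. The lowest subline library was far above the highest parental library, and the log2 fold change was 1.02 ± 0.047, or 2.03-fold. Hspg2, which encodes perlecan of basement membranes, had 188, 269, 247, 209 and 206 CPM in WT31 and 311, 318, 329, 292 and 313 CPM in WT31_P5IV, with 0.48 ± 0.079. Its groups did not overlap, but the WT31 libraries were more spread than those of Agrn. Cspg4, a melanoma antigen that carries chondroitin sulfate and not heparan sulfate, was listed with the core proteins but was scarce, at 34 to 57 counts in WT31 and 52 to 64 in WT31_P5IV. Its log2 fold change was 0.47 ± 0.14, its groups overlapped and its call was lost on the TPM scale.

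Summed over the 12 core protein genes, the level was 1494 ± 74.3 TPM in WT31 and 1502 ± 69.2 TPM in WT31_P5IV. Without mitochondrial genes these means were 1754 ± 102 and 1990.3 ± 114 TPM, higher in WT31_P5IV, and on either scale the libraries of the groups overlapped. Within that sum, Sdc3 went from 73.9 ± 1.03% to 67.8 ± 1.14% and Agrn from 3.22 ± 0.210% to 5.75 ± 0.332%. The share of Sdc1 was 1.87 ± 0.148% and 3.28 ± 0.113%. In these shares the subline libraries lay on 1 side of the parental ones for each of the 3 genes.

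Among the 4 genes of chain polymerisation, 3 were called higher, Ext2, Extl3 and Ext1, as were 34.6% of all genes tested. The CPM of Ext2 and Extl3 did not overlap between the groups, as for 54.1% of all genes. Ext1 and Ext2 encode the subunits of the heparan sulfate polymerase, which adds glucuronic acid and N-acetylglucosamine in turn. Ext2, at chr2:93661028-93822568, had 97.1, 94.5, 94.1, 101 and 105 CPM in WT31 and 159, 181, 161, 149 and 157 CPM in WT31_P5IV, with a log2 fold change of 0.71 ± 0.051. Ext1 had 57.7, 61.9, 62.4, 59.0 and 60.0 CPM in WT31 and 64.0, 74.9, 67.5, 63.6 and 59.4 CPM in WT31_P5IV, with 0.13 ± 0.053. The groups of Ext2 were apart and those of Ext1 overlapped. The call of Ext1 did not hold in 9 of 10 fits that left out 1 library, and its direction turned on the TPM scale. The ratio of Ext2 to Ext1 TPM was 1.84 ± 0.123 in WT31 and 2.90 ± 0.141 in WT31_P5IV, with no overlap. Ext2 shares stretches of the genome with Alx4 and Gm13818 on the opposite strand, though none of its 31-base words was shared with another gene.

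Extl3, which adds the first N-acetylglucosamine to the finished linker, was called higher, at 202 to 212 and 214 to 245 CPM. Its log2 fold change of 0.17 ± 0.040 turned slightly negative on the TPM scale, where its call was lost and its groups overlapped. Extl2, which can cap a nascent chain, was at 25.8 to 27.2 and 26.96 to 30.4 CPM and was not called, with 0.079 ± 0.043, and on the TPM scale it was called lower. By TPM the order was Ext2, Extl3, Ext1 and Extl2 in both groups. In WT31 the ranges of Ext2 (60.4 to 66.4 TPM) and Extl3 (53.3 to 63.7 TPM) overlapped, whereas in WT31_P5IV they did not, at 80.7 to 101 and 52.8 to 62.7 TPM.

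Among the genes of N-sulfation, Ndst1 and Ndst2 were called higher and Ndst3 lower. The NDST enzymes remove acetyl groups from glucosamine and put sulfate in their place, and later modifications depend on this step. Ndst3 had 39.7, 43.0, 39.0, 35.6 and 37.0 CPM in WT31 and 27.8, 32.3, 29.6, 24.8 and 29.3 CPM in WT31_P5IV, and was 1.35-fold lower, a log2 fold change of -0.43 ± 0.066. Ndst2 was at 22.8 to 24.3 and 28.8 to 38.2 CPM, with 0.47 ± 0.063, and Ndst1, the most abundant of the family, at 161 to 181 and 187 to 222 CPM, with 0.28 ± 0.050. On CPM none of the 3 overlapped between the groups, as for 54.1% of all genes tested. On the TPM scale the groups of Ndst1 overlapped and its call was lost. The summed level of the 3 genes overlapped, at 67.1 to 82.8 TPM in WT31 and 69.6 to 81.7 TPM in WT31_P5IV. Without mitochondrial genes it also overlapped, at 78.4 to 98.7 and 92.0 to 111 TPM. The share of Ndst3 was 16.0 ± 0.857% and 10.2 ± 0.457%. The ratio of Ndst1 to Ndst3 TPM was 4.05 ± 0.193 and 6.66 ± 0.269.

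Glce encodes the C5-epimerase that turns glucuronic into iduronic acid, which makes the chain more flexible. It had 19.2, 20.3, 22.2, 19.7 and 19.4 CPM in WT31 and 15.1, 18.4, 17.6, 14.8 and 15.7 CPM in WT31_P5IV. Every subline library was below every parental one, with a log2 fold change of -0.30 ± 0.067. Hs2st1, the 2-O-sulfotransferase that acts on the iduronic acid made by Glce, was at 117 to 131 and 126 to 144 CPM, with 0.12 ± 0.046. Its groups overlapped, its call was lost in 6 of 10 fits without 1 library, and its direction turned on the TPM scale.

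Among the enzymes that add and remove 6-O-sulfate, a group that many growth factors need for binding, Sulf2 was called lower in WT31_P5IV and Hs6st1 higher by a small amount with overlapping groups. Hs6st2, a 6-O-sulfotransferase on the X chromosome at chrX:51387212-51681856, had 21, 25, 16, 17 and 17 counts in the WT31 libraries and 0, 0, 0, 0 and 1 in WT31_P5IV. The gene, which passed the filter on low counts through the WT31 libraries alone, was low in every parental library and at or under the detection floor in every subline library. Against the floor of 3 counts per library its mean CPM was at least 5.97-fold lower in WT31_P5IV. In TPM it was at 0.699, 0.446, 0.269, 0.250 and 0.470 in WT31, which made up 2.00 to 5.72% of the summed 6-O-sulfotransferase TPM of a library.

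Hs6st1 supplied nearly all of that sum, with 27.1, 26.4, 27.6, 29.5 and 28.4 CPM in WT31 and 30.7, 32.2, 30.3, 32.5 and 28.6 CPM in WT31_P5IV. Its log2 fold change was 0.15 ± 0.047 and it was called higher, a call that was lost with no filter beyond 1 count and in limma voom without scaling or filter. It turned slightly negative on the TPM scale, where it was at 11.8 ± 0.317 and 11.6 ± 0.403 TPM. Of its 31-base words 8.75% are shared, mostly with Gm37335 on the opposite strand. Hs6st3 had at most 3 counts and was not tested. The summed 6-O-sulfotransferase level was 12.3 ± 0.145 TPM in WT31 and 11.6 ± 0.395 TPM in WT31_P5IV, lower in the subline, but without mitochondrial genes it was 14.4 ± 0.210 and 15.4 ± 0.724 TPM, higher in the subline. The direction of this sum thus depends on the scale, and its groups overlapped on both.

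Sulf2 encodes the extracellular sulfatase that removes 6-O-sulfate from finished chains, and it was the tested member with the largest fall after Hs6st2. Located at chr2:166073089-166155663 on the minus strand, it had 49.5, 48.6, 47.8, 51.3 and 52.7 CPM in WT31 and 25.4, 26.6, 27.8, 23.0 and 22.3 CPM in WT31_P5IV. The 5 WT31 libraries were close together and all above those of the subline, with a log2 fold change of -0.997 ± 0.058, or 2.00-fold lower. Its mean inferred transcript length, counts divided by TPM, was 0.922 times that in WT31 with no overlap, as for 11.0% of 9230 genes with several transcripts. On TPM its level was 21.8 ± 0.160 in WT31 and 10.5 ± 0.916 in WT31_P5IV. Sulf1, its relative, had at most 3 counts in any library. The ratio of Sulf2 to Hs6st1 TPM was 1.85 ± 0.0492 in WT31 and 0.909 ± 0.0780 in WT31_P5IV.

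Sulfation at the 3-O position, needed for the antithrombin-binding sequence, was represented among the tested genes by Hs3st1. It had 1.69, 2.08, 3.33, 2.36 and 3.33 CPM in WT31 and 1.56, 2.40, 2.57, 1.43 and 2.07 CPM in WT31_P5IV, groups that overlapped widely. The log2 fold change was -0.35 ± 0.21 and it was not called. Hs3st3a1 and Hs3st3b1, which make other 3-O-sulfated sequences, had at most 1 count in any library and were not tested.

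Hpse encodes heparanase, the endoglucuronidase that cuts heparan sulfate chains and releases the factors bound to them. The gene, at chr5:100679484-100719716, had 103, 99.3, 103, 101 and 96.7 CPM in WT31 and 179.7, 197, 194, 177 and 195 CPM in WT31_P5IV. No library of either group came near the other group, and the log2 fold change was 0.90 ± 0.040, or 1.87-fold. Heparanase was among the more abundant enzymes of the list, at 51.6 ± 2.43 TPM in WT31 and 85.8 ± 4.70 TPM in WT31_P5IV, next to Ext2 at 63.0 ± 2.23 and 90.2 ± 7.69 TPM. Its ratio to Sulf2 TPM was 2.36 ± 0.0989 in WT31 and 8.21 ± 0.953 in WT31_P5IV, with values of 2.21 to 2.47 against 7.24 to 9.80.

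**Figure D4:**
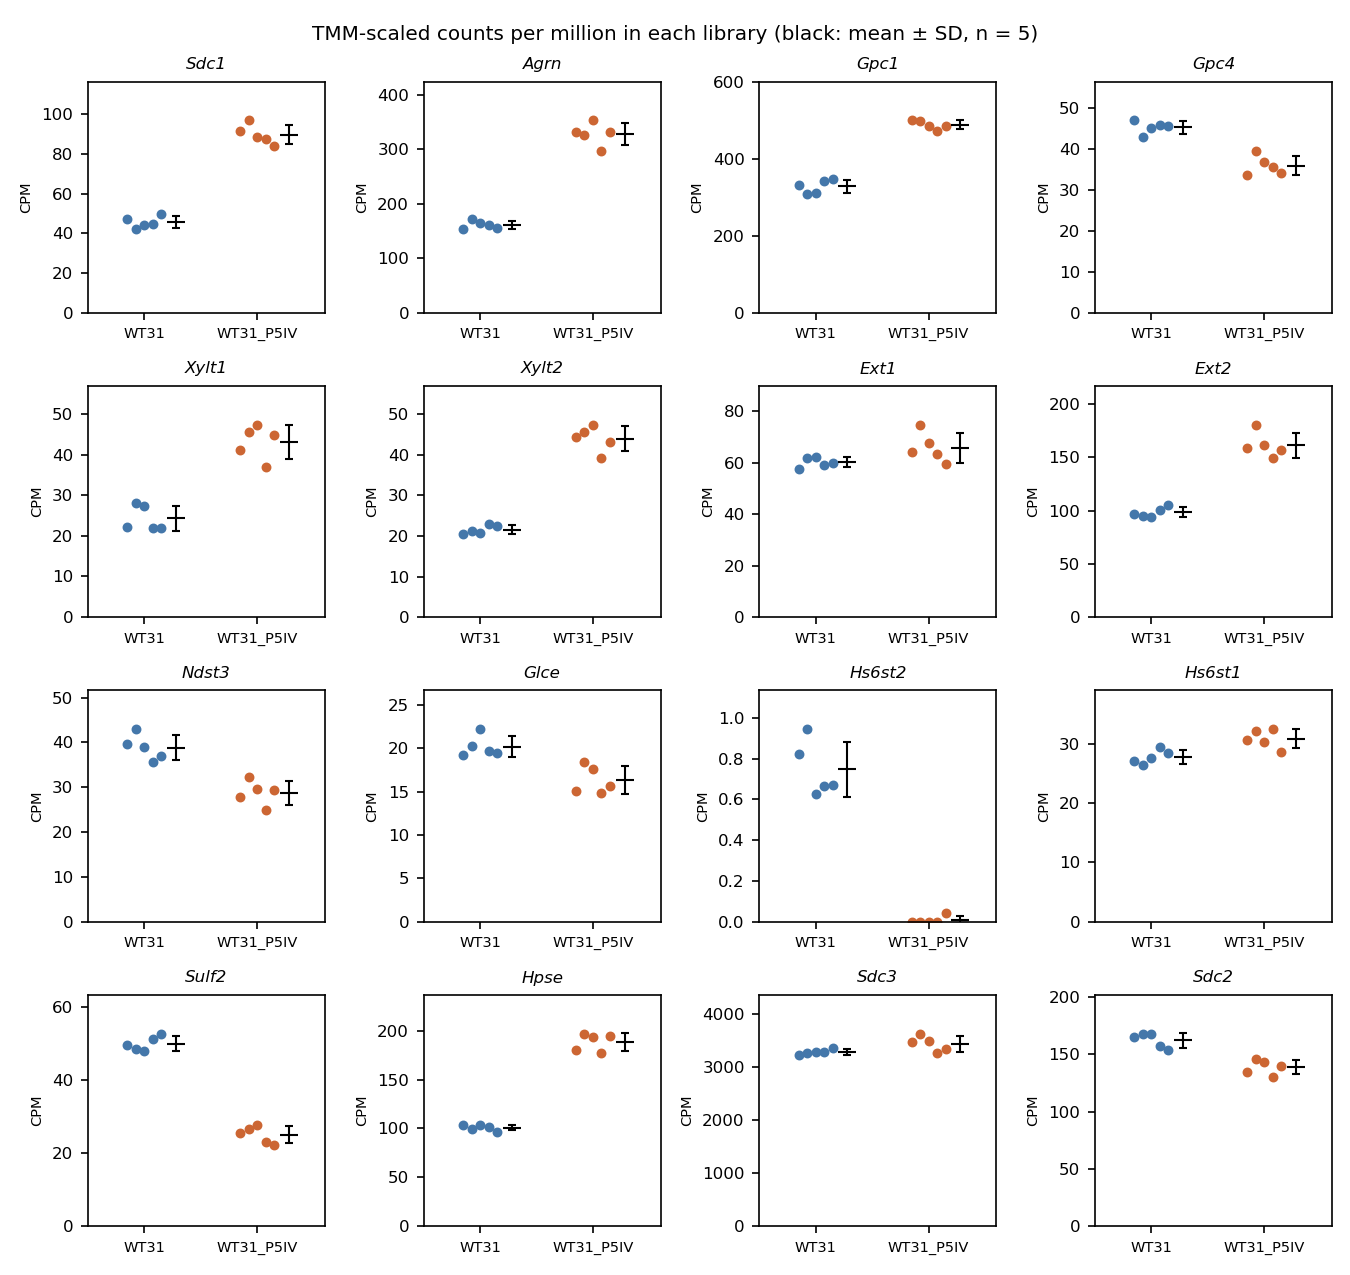
TMM-scaled CPM of 16 members in each library, each panel with its own axis from 0, with 5 points per group and the mean ± SD in black. Xylt2, Agrn, Sdc1 and Hpse lie clearly higher in WT31_P5IV, Sulf2, Ndst3 and Gpc4 clearly lower, Hs6st2 falls to 0 in 4 of 5 libraries, and Ext1, Hs6st1 and Sdc3 overlap.

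Inferred transcript length was also compared between the groups for the other members. Of 24 members with several transcripts and at least 100 counts, 2 (8.3%, against 11.0% of all such genes) had inferred lengths that did not overlap between the groups, Gpc1 at a ratio of 0.995 and Sulf2 as above, and neither reached a shift of 0.2 on the log2 scale, as 1.3% of all such genes did without overlap. Some members are neighbours on a chromosome. Gpc4 and Hs6st2, which were both lower, lie 0.371 Mb apart on the X chromosome. Within 500 kb of Hs6st2, 4 other genes were tested and 3 were lower, Stk26 with a log2 fold change of -1.17 ± 0.044 (edgeR adjusted p = 1.5e-11), Rap2c with -0.64 ± 0.044 (adjusted p = 9.2e-09) and Gpc4. Mbnl3, with a value of 0.98 ± 0.43, was not called. Within 500 kb of Agrn 34 other genes were tested, of which 21 were higher and 4 lower, with a median of 0.37, and within 500 kb of Xylt2 it was 6 higher and 4 lower of 14, with a median of 0.11. Over all genes tested 34.6% were higher and 33.9% lower, with a median of 0.010. Of the higher neighbours, 4 of Agrn and 1 of Xylt2 entered the fit through WT31_P5IV alone.

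The pathways that feed, compete with and take down heparan sulfate were followed in 85 further genes in 8 lists. Of these, 57 were tested, 34 were higher and 18 lower, and 11 passed the filter of 1 on the log2 scale, where 34.6% of all genes tested were higher, 33.9% lower and 9.10% past the filter. Without Chst15 and Fgf2, which entered the fit through 1 group alone, 33 of 55 were higher and 17 lower, and 9 passed the filter. The lists were drawn up with the earlier results known and are not independent of them.

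Breakdown in the lysosome was represented by 8 genes, of which 7 were higher. Ids, the iduronate sulfatase, which is named after its value was seen, was lower. Sgsh, the sulfamidase that removes N-sulfate, was at 8.04 to 10.1 CPM in WT31 and 31.3 to 36.6 CPM in WT31_P5IV, with a log2 fold change of 1.87 ± 0.068 (edgeR adjusted p = 1.2e-11). Arsg, an arylsulfatase of 3-O-sulfated glucosamine, changed by 1.28 ± 0.056 (adjusted p = 7.9e-11) and Naglu, an N-acetylglucosaminidase, by 1.25 ± 0.049 (adjusted p = 2.9e-11). The list had a median of 0.73 on the log2 scale. The groups did not overlap for 8 genes on CPM and for 7 on TPM. Of all genes tested, 54.1% on CPM and 50.9% on TPM did not overlap. Hpse, the member that cuts chains into shorter pieces, moved in the same direction.

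Chondroitin and dermatan sulfate enzymes, which use the same linker, were higher in 10 and lower in 3 of 13 tested. Chst11, a chondroitin 4-O-sulfotransferase, was at 0.515 to 0.946 CPM in the parental line and 3.26 to 4.30 CPM in the subline, a log2 fold change of 2.50 ± 0.16 (edgeR adjusted p = 4.1e-09). Chsy3, a chondroitin synthase, rose by 1.15 ± 0.053 (adjusted p = 1.5e-10). Chst15, which makes disulfated chondroitin, was lower in the subline, at 0.168 to 0.429 CPM against 1.93 to 2.94 CPM, with -3.22 ± 0.22, but it entered the fit through WT31 alone and its p is not given. Among 5 tested chondroitin sulfate core proteins 4 were higher, including Bgn, biglycan, with 2.16 ± 0.19 (adjusted p = 1.6e-07) and Bcan, brevican, with 1.01 ± 0.038 (adjusted p = 1.6e-11). Ptprz1, a receptor phosphatase that carries chondroitin sulfate, was also lower, at 1.18 to 1.69 CPM in the subline against 12.3 to 15.6 CPM, with -3.29 ± 0.11 (adjusted p = 3.2e-12).

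The supply of activated sugars and sulfate was mixed. Of 13 tested genes 5 were higher and 8 lower, none by 1 on the log2 scale, and the median was -0.19. Some of them are named here after their values were seen. Ugdh, which makes UDP-glucuronic acid, was at 86.1 to 92.4 and 59.1 to 65.1 CPM, with -0.56 ± 0.038 (edgeR adjusted p = 8.2e-09), and Papss1, which makes the sulfate donor PAPS, at -0.25 ± 0.033 (adjusted p = 9.4e-06). Slc35b2, which carries PAPS into the Golgi apparatus, was at 143 to 172 and 248 to 274 CPM, with 0.68 ± 0.053 (adjusted p = 3.3e-08). Ugdh and Papss1 were thus called lower and Slc35b2 higher.

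Proteins that bind or release the core proteins were mixed. Of 7 tested, 2 were higher and 3 lower. Notum, a secreted lipid-removing esterase that binds glypicans, was lower in the subline, at 5.72 to 8.59 CPM against 18.1 to 22.5 CPM, with -1.56 ± 0.10 (edgeR adjusted p = 2.9e-09). Sdcbp, syntenin, which binds the cytoplasmic tail of syndecans and is named after its values were seen, was at 1198 to 1242 and 610.1 to 658 CPM, with -0.94 ± 0.034 (adjusted p = 1.1e-11). Of 6 tested FGF ligands and receptors, which signal with heparan sulfate as a cofactor, 3 were higher and 1 lower, and Fgf2 was higher, at 27 to 38 counts in subline libraries against 8 to 18, with 1.31 ± 0.21, and entered the fit through WT31_P5IV alone. Among other proteins that can carry heparan sulfate, 2 of 4 tested were higher and 1 was lower, none past the filter. Of 8 relatives of the members outside the list only Extl1, singled out after its value was seen, was tested, with 0.54 ± 0.049 (adjusted p = 2.1e-07).

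**Figure D5:**
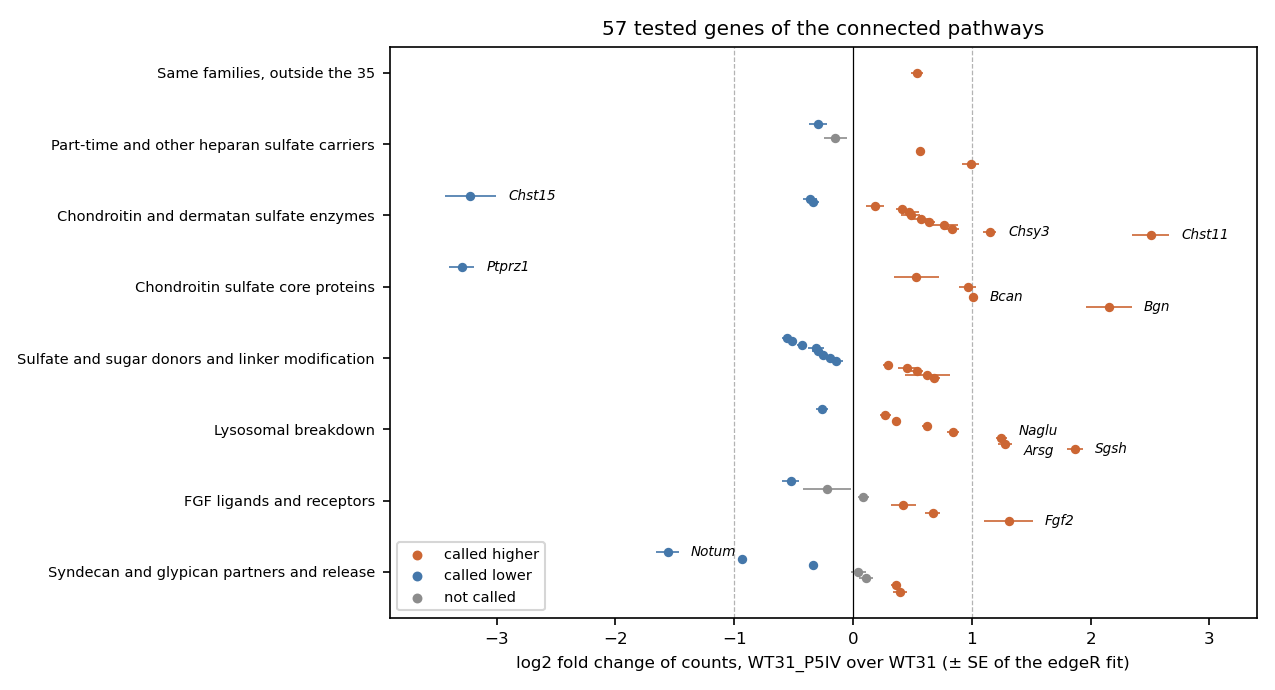
Log2 fold change of counts, WT31_P5IV over WT31, with ± 1 SE, for the 57 tested genes of the 8 connected lists, coloured by call, with names for those past the dashed lines. Lysosomal genes lie to the right except Ids, donor genes lie on both sides within 1 of 0, and Ptprz1 and Chst15 lie farthest to the left at -3.29 and -3.22.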

How the data were processed

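Per the labels and the study's methods, RNA of subconfluent cultures was sequenced, reads were trimmed with Trim Galore 0.6.4, and kallisto (version 0.4.6 in the submitters' processing notes) assigned them to transcripts of GRCm38.p6. The study's methods give a different kallisto version. The authors deposited, for each library, 1 table of estimated counts per gene and 1 of TPM, which divide by transcript length and library total. Whether the libraries keep strand is not given in the sources used here. Members and lists were chosen with earlier results of these data known. Gene IDs were matched to GENCODE M21 symbols without their version (55144 of 55385).

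Estimated counts were rounded, filtered with filterByExpr and TMM-scaled, and the 5 WT31_P5IV libraries were compared with the 5 WT31 libraries by edgeR 4.0.16 (glmQLFit, glmQLFTest, R 4.3.3) over all genes. A gene is said to enter the fit through 1 group alone where all 5 libraries of that group, and fewer of the other, reached the filter's cutoff. The SE is the fitted change divided by the square root of F. The test was checked on simulated counts. Alternatives used DESeq2 1.42.0, limma 3.58.1 (voom, and log2 of TPM plus 0.1 or 1), other scalings and filters, and fits without 1 library. All 35 members could be named. Genes outside them were named if past the filter with CPM that did not overlap, at most 4 per direction and list, or if within 500 kb of the 3 members with the largest change. Exceptions are marked, apart from Cdkn2a, markers and genes named for a changed call, an overlap or shared sequence. Shared words are 31-base runs of a gene's GENCODE transcripts that occur in another gene's. Inferred length is counts over TPM, scaled on genes with 1 transcript, and was added after the data were seen. Floors cover counting error only.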

Additional observations from a re-analysis of the deposited data

Results flagged for a closer look

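In 60 groups of 5 libraries, the CPM of each tested member in each group, 1 library stood apart from the 4 others. WT31_P5IV replicate 5 had 0.0413 CPM of Hs6st2, which is 1 count, where the other 4 libraries of the group were at 0. Chance alone flags about 1 group in 20.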

How the results depend on the processing

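The number of members called was 25 with DESeq2, 25 with at least 10 counts in every library (Hs6st2 could not be fitted), 26 with limma voom, 22 with limma voom without scaling or filter, 23 without a filter beyond 1 count and 28 with upper-quartile scaling. Without 1 library it was 24 to 25, and 2 to 4 passed the filter. On the log2(TPM + 0.1) and log2(TPM + 1) scales the number called was 20 each, of which 13 were higher and 7 lower, and on the second scale 0 passed the filter. TPM moved the median of all genes by -0.17 and -0.16. With mitochondrial genes left out and TPM rescaled, an alternative chosen after seeing the data, that shift was 0.0044 and 23 were called, 17 higher and 6 lower.

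Directions turned on the 2 TPM scales for Sdc3 (-0.12 on each), Sdc4 (-0.11 on each), Ext1 (-0.14 on each), Extl2 (-0.18 and -0.17), Extl3 (-0.018 on each), Hs2st1 (-0.055 and -0.054) and Hs6st1 (-0.025 and -0.023), with limma voom without scaling or filter for Sdc3 (-0.0045) and Sdc4 (-0.011), and without mitochondrial genes for Extl2 (-0.0025). All 5 linker enzymes, Sdc1, Agrn, Ext2 and Hpse stayed called higher and Sdc2, Gpc4, Ndst3, Glce and Sulf2 called lower under every alternative. Hs3st1 became called without WT31 replicate 1. Among the fits without 1 library, Xylt2 left the filter of 1 without WT31 replicate 1 or WT31_P5IV replicate 3 (lowest 0.9964), Agrn without WT31 replicates 1 or 5 or WT31_P5IV replicate 3 (lowest 0.9907), and Sulf2, outside it with all libraries, passed it in all but those without WT31 replicate 5 or WT31_P5IV replicates 4 or 5 (-0.9921, -0.9726 and -0.9621). Among the same fits, Ext1 stayed called only without WT31_P5IV replicate 5. Hs2st1 stayed called there only without WT31 replicates 2 or 3 or WT31_P5IV replicates 1 or 4.

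The deviations of same-numbered replicates from their group means had weak correlations, at -0.014, 0.067, 0.18, 0.080 and -0.096. For WT31 replicates 3 and 4 the same-numbered library was the best match. The libraries were not paired in the main fit, and these values cannot show whether same-numbered cultures were handled together. With a replicate block 26 members were called, 20 higher and 6 lower, 3 passed the filter, and 52 other pathway genes were called, of which 51 also without the block, with Pxylp1 lost and Adam10 gained. Of the other pathway genes, Csgalnact2 lost its call under 12 alternatives, Pxylp1 under 8, Vcan under 7, Fgfr4 under 3 and Slc26a1 and Uxs1 under 2 each. Depth limits the genes under the floor: for Gpc3, Hs6st3, Hs3st3a1, Hs3st3b1 and Sulf1 a difference was not detectable.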

Other observations

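Other proteins that carry heparan sulfate on part of their molecules were read after their values were seen. Col18a1, which encodes the basement membrane collagen XVIII, changed by 0.99 ± 0.072 on the log2 scale (edgeR adjusted p = 1.8e-08), with 6.11 to 7.78 CPM in the parental line against 13.4 to 15.1 CPM in the subline, and was higher in 5 of 5 subline libraries. Cd44, the hyaluronan receptor, was at 568 to 602 and 822 to 908 CPM, with 0.56 ± 0.036 (adjusted p = 4.1e-09). Nrp1, a coreceptor of semaphorins and VEGF, was at 30.6 to 40.4 and 24.1 to 30.1 CPM, with -0.29 ± 0.079 (adjusted p = 0.0041).

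Among the neighbours of Xylt2 within 500 kb, Wfikkn2, a secreted protease inhibitor, had 3 to 8 counts in parental libraries and 37 to 47 in those of the subline, which is a difference of 3.24 ± 0.23 on the log2 scale. Among those of Agrn, Plekhn1 at a distance of 23968 bases had 287 to 335 and 634 to 708 counts, with 1.19 ± 0.053 (edgeR adjusted p = 9.9e-11), and Samd11 had 3 to 13 and 22 to 30 counts, with 1.94 ± 0.27. Wfikkn2 and Samd11 passed the filter on low counts through the subline alone, so they had to differ to be tested and no p is given.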
